A study of Mus musculus with 3 samples.

Results

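The 10 genes described here are core parts and outputs of the circadian clock: Arntl, Clock, Per1, Per2, Per3, Cry1, Cry2, Nr1d1, Nr1d2 and Dbp. They were chosen by name, from knowledge of the pathway, and all 10 were found among the 34617 gene rows of the deposited expression table. The table compares transcript levels in neurons with and without overexpression of Tet3, an enzyme that oxidises 5-methylcytosine in DNA to 5-hydroxymethylcytosine. The O/Tet3 library was made from sorted cells of OMP-tTA / tetO-Tet3-GFP mice of strain Fvb, in which the olfactory marker protein driver (OMP) switches on a Tet3-GFP transgene through the tetracycline transactivator tTA. The mOSN library was made from OMP-ires-EGFP positive cells, that is, mature olfactory sensory neurons, of C57BL/6J mice. Both came from the main olfactory epithelium at an age of 4 weeks, and both hold total RNA depleted of ribosomal RNA. Each group has 1 library, so differences carry no test and no error, and the effects of genotype, strain and library cannot be told apart. How many animals were pooled and the time of day at which tissue was taken, on which clock transcripts depend, are not given in the sources used here.

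The clock is a feedback loop in which the proteins of Arntl (BMAL1) and Clock pair, bind E-boxes in DNA and switch on the Per, Cry and Nr1d genes and outputs such as Dbp. The PER and CRY proteins return to the nucleus and block the BMAL1 and CLOCK pair, while the nuclear receptors encoded by Nr1d1 and Nr1d2 (REV-ERB alpha and beta) repress Arntl through elements that ROR receptors use to activate it. Most body cells run such a loop, and the olfactory bulb, the target of these neurons, is known for a rhythm that persists without the central pacemaker of the hypothalamus.

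A level is given as the value of a gene in 1 library, obtained by undoing the deposited log2(value + 1) scale. The log2 ratio is the difference of the deposited log2(value + 1) levels, O/Tet3 minus mOSN, and understates differences of low genes. Rows reaching a value of 1 in one library or both were compared, and those whose value + 1 differed 2-fold or more are called higher or lower in O/Tet3. Tet3 itself had a value of 145 in the O/Tet3 library and 3.72 in the mOSN library, 39.1-fold higher. Low rows moved in steps of whole reads that were 1.89-fold larger in the O/Tet3 library, and equal values therefore stand for fewer reads in O/Tet3. For a transcript as short as an olfactory receptor, 1 read was worth a value of 0.0501 in the O/Tet3 library and 0.0266 in the mOSN library.

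The clock genes had ratios of unlike size and sign. Of the 10 genes, 9 were compared, since Dbp was under a value of 1 in each library. Of these 9, 2 were at least 2-fold higher in the O/Tet3 library, Nr1d2 and Per3, and 0 were lower. Per3 and Nr1d1 were compared only through their O/Tet3 values, as both were under 1 in mOSN. Over all 12943 compared rows, 16.5% were higher and 12.0% lower by the same rule. A count of 2 among 9 is near that background. The median log2 ratio of the 9 genes was 0.17, against 0.21 for all compared rows. Counted by the values themselves, without the added 1, Nr1d2 and Per3 were again the higher genes and Per2 was also past 2-fold, lower in O/Tet3, where 24.0% of 12277 rows were higher and 13.1% lower. Of all 10 genes, 7 had a log2 ratio above 0 and 3 (Per2, Cry2 and Clock) below it, near the 60.5% of all compared rows above 0. Cry1 and Nr1d1 turned negative under both other scalings described below.

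**Figure D1:**
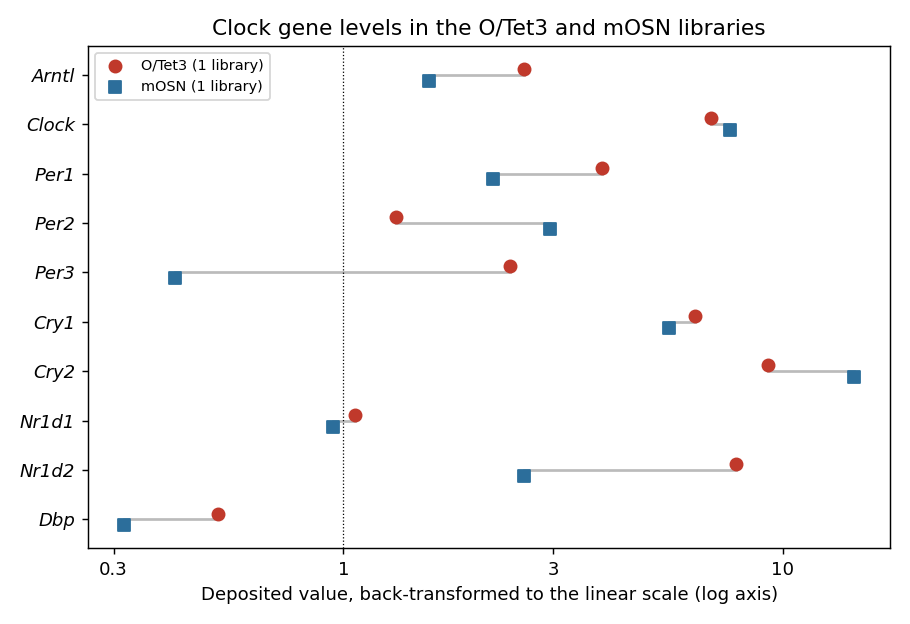
Values of the 10 clock genes on a logarithmic axis, with a red circle for the O/Tet3 library and a blue square for the mOSN library, 1 library each, and a dotted line at a value of 1. The widest gaps are at Per3 (2.40 in O/Tet3 and 0.415 in mOSN) and Nr1d2 (7.83 in O/Tet3 and 2.57 in mOSN), and Per2 lies the other way (1.32 in O/Tet3 and 2.95 in mOSN).

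The scale of the libraries matters for these calls. Over rows reaching 1 in both, the median log2 ratio was 0.21. Relative to that shift, the log2 ratio was 1.10 for Nr1d2 and 1.06 for Per3, still past 2-fold. The O/Tet3 values were also scaled so that their sum, without small RNAs and the largest rows, equalled that of mOSN. The log2 ratios of value + 1 were then 0.91 for Nr1d2 and 0.96 for Per3, just under 2-fold, and −1.01 for Per2. Before this scaling, that sum was 1.37-fold higher in O/Tet3, while the deposited values were 3.04-fold higher for Nr1d2 and 5.78-fold for Per3. Without the added 1, both genes therefore stayed past 2-fold under this scaling. The deposited values of Per2 and Cry2 were 2.23-fold and 1.57-fold lower in O/Tet3, and under this scaling both were past 2-fold lower without the added 1. Over all rows, 2135 were higher and 1552 lower as deposited, 1464 and 1953 relative to the shift, and 1086 and 2186 with the summed scaling. Comparisons of genes within a library do not depend on the scale, and are given below beside the levels.

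Both activators were within 2-fold between the libraries. Clock, a transcription factor of the bHLH-PAS family, had a value of 6.87 in the O/Tet3 library and 7.60 in the mOSN library (log2 ratio −0.13). Its partner Arntl was at 2.58 in O/Tet3 and 1.57 in mOSN (log2 ratio 0.48), below 2-fold. Clock thus had the higher value of the pair in each library, 2.66-fold above Arntl in O/Tet3 and 4.84-fold above it in mOSN. To read this as abundance assumes values per length of transcript, which the sources used here do not state. The paralogs that can take their places were low: Npas2, which can stand in for Clock, was at 0.106 in O/Tet3 and 0.0668 in mOSN, and Arntl2 was listed at 0 in O/Tet3 and at 0.373 in mOSN.

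From high to low, the O/Tet3 order of the 10 genes was Cry2, Nr1d2, Clock, Cry1, Per1, Arntl, Per3, Per2, Nr1d1 and Dbp, and the mOSN order was Cry2, Clock, Cry1, Per2, Nr1d2, Per1, Arntl, Nr1d1, Per3 and Dbp. With 1 library each, it is not known which neighbours in these orders differ beyond the spread between libraries of a group. As orders of abundance they also assume values per length of transcript.

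The 3 Per genes, whose proteins form the repressor complex with the CRY proteins, differed most among themselves. Per1 was at 3.89 in the O/Tet3 library and 2.19 in the mOSN library, 1.77-fold higher in O/Tet3 (log2 ratio 0.61, under 2-fold of value + 1). Per2 was at 1.32 in O/Tet3 and 2.95 in mOSN, 2.23-fold lower in its values (log2 ratio −0.77). Per3 was at 2.40 in O/Tet3 and 0.415 in mOSN, 5.78-fold higher (log2 ratio 1.26). The paralogs thus ran Per1, Per3, Per2 from high to low in O/Tet3, and Per2, Per1, Per3 in mOSN.

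The ratio of Per3 to Per2, which does not depend on the scale of a library, was 1.82 in O/Tet3 and 0.141 in mOSN, a 12.9-fold difference. It combines the 5.78-fold higher Per3, whose mOSN value is low, with the 2.23-fold lower Per2. By value + 1 the ratio was 1.47 in O/Tet3 and 0.358 in mOSN, a 4.09-fold difference. Summed over the 3 genes, Per value was 7.60 in O/Tet3 and 5.55 in mOSN, 1.37-fold higher in O/Tet3. Per3 made up 31.6% of that sum in O/Tet3 and 7.47% in mOSN, Per2 17.4% in O/Tet3 and 53.1% in mOSN, and Per1 51.1% in O/Tet3 and 39.5% in mOSN. Such shares compare levels between genes and assume values per length of transcript, which the file does not state. The Per3 value in mOSN is that of about 16 reads on a transcript of receptor length, against about 48 in O/Tet3. The Per3 transcript is longer, so more reads than these lie behind each value.

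**Figure D2:**
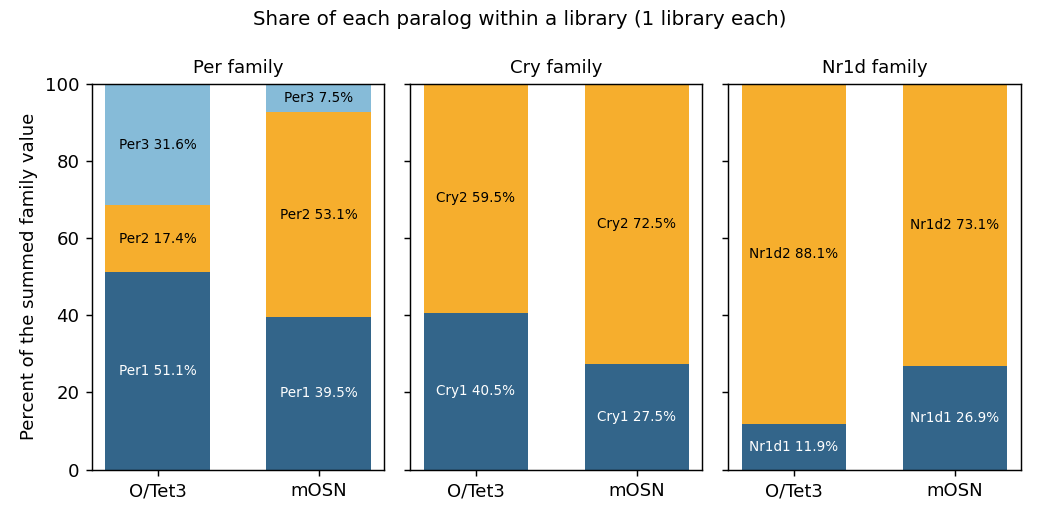
Share of each paralog in the summed value of its family, as stacked bars in percent, with the O/Tet3 library left of the mOSN library in each panel. Per3 is larger than Per2 in the Per sum in O/Tet3 (31.6%) and the smallest part in mOSN (7.47%), while Nr1d2 and Cry2 are the larger parts of their families in each library.

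The sequence before the start of Per3 holds a motif that few windows have. PAR bZIP factors such as DBP act at D-boxes, and the letters of a D-box, TTATGTAA, were searched on both strands from 250 bases before to 50 bases after each annotated start. They occur in 0.938% of all 32851 such windows of RefSeq genes (GRCm38.p6), and of the 9 clock genes with a window only in that of Per3, where they stand 205 and 158 bases before the start. Only 7 windows of all hold them at least 2 times, 0.0213%. Per2 has no window in the table used. The Per1 gene has an E-box, CACGTG, 166 bases before the start of one of its 2 windows, as 7.15% of all windows do. Both windows are shown because they belong to the paralogs with the higher values in O/Tet3. Their D-boxes, E-box and the core of a ROR element (AGGTCA or its reverse complement) are in capitals, read 5′ to 3′ along the gene. The Per3 window lies at chr4:151044616-151044915 on the minus strand and the Per1 window at chr11:69098699-69098998 on the plus strand.
Per3: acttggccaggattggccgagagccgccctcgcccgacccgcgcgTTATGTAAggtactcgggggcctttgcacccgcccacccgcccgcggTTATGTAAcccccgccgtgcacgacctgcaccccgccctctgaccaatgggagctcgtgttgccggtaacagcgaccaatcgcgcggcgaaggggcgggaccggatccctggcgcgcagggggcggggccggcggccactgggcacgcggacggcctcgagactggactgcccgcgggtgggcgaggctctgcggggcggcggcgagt
Per1: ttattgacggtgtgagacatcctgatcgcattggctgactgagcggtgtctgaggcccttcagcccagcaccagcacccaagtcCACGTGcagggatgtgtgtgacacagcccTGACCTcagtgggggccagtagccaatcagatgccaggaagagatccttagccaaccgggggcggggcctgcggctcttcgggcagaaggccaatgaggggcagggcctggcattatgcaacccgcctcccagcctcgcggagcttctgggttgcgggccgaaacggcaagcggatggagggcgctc

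A match of letters is a description of these windows, and nothing in the 2 libraries tests whether a factor binds there. The factors that act at D-boxes were present at unlike levels. Dbp, the clock output of the list, had a value of 0.520 in the O/Tet3 library and 0.317 in the mOSN library, the lowest of the 10 genes in each and about 10 and 12 reads at receptor length. Tef, of the same family, was at 9.26 in O/Tet3 and 12.6 in mOSN (log2 ratio −0.41), and Hlf at 0.0826 in O/Tet3 and 0.154 in mOSN. Nfil3, which represses through D-boxes, was at 1.48 in O/Tet3 and 1.08 in mOSN (log2 ratio 0.25). Dbp and Hlf were too low to be compared, and Tef and Nfil3 were within 2-fold. Sphk2 overlaps Dbp in the annotation and was at 1.94 in O/Tet3 and 1.21 in mOSN. No source used here says whether reads were assigned by strand, so reads from the overlap cannot be told apart.

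As deposited, both Cry genes were within 2-fold. Cry2, a repressor of the BMAL1 and CLOCK pair, had the highest value of the 10 genes in each library. It was at 9.25 in O/Tet3 and 14.5 in mOSN, 1.57-fold lower in O/Tet3 (log2 ratio −0.60). With the summed scaling Cry2 had a log2 ratio of −0.9997, at the edge of 2-fold. Cry1, its paralog with the same target, was at 6.30 in O/Tet3 and 5.50 in mOSN (log2 ratio 0.17, or −0.037 relative to the shift of all genes). Their summed value was 15.5 in O/Tet3 and 20.01 in mOSN, with Cry2 making up 59.5% in O/Tet3 and 72.5% in mOSN. The long noncoding row D930015M05Rik overlaps Cry2 and was at 1.18 in O/Tet3 and 1.25 in mOSN. The Cry1 window holds an E-box 60 bases and an E′-box (CACGTT, in 4.68% of all windows) 79 bases before the start, with the E′-box on the reverse strand. It lies at chr10:85185005-85185304 on the minus strand and is the only window of the clock genes with both kinds of E-box, shown in capitals.
Cry1: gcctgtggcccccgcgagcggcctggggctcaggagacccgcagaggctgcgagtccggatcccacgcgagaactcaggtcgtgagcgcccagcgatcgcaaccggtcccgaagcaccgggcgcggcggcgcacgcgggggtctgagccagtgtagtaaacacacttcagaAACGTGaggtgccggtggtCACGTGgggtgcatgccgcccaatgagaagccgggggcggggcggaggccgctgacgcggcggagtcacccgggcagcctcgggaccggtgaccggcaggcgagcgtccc

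The nuclear receptor genes of the loop had unlike ratios. Nr1d2 was at 7.83 in the O/Tet3 library and 2.57 in the mOSN library, 3.04-fold higher (log2 ratio 1.30), a ratio above that of 90.6% of all compared rows. Nr1d1, which encodes REV-ERB alpha, was at 1.06 in O/Tet3 and 0.947 in mOSN (log2 ratio 0.08, or −0.12 relative to the shift of all genes). Nr1d2 was thus 7.38-fold above Nr1d1 in O/Tet3 and 2.72-fold above it in mOSN, or 4.28-fold in O/Tet3 and 1.83-fold in mOSN by value + 1. The summed value of the pair was 8.89 in O/Tet3 and 3.52 in mOSN, 2.52-fold higher, with 88.1% of it from Nr1d2 in O/Tet3 and 73.1% in mOSN. Thra, a thyroid hormone receptor gene whose 3′ end overlaps that of Nr1d1 on the other strand, was at 6.09 in O/Tet3 and 12.3 in mOSN, and reads from the overlap could fall to either gene.

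The Nr1d genes are repressors of Arntl, and the ratio of Arntl to each was set side by side. Arntl stood 2.44-fold above Nr1d1 in O/Tet3 and 1.66-fold above it in mOSN. Against Nr1d2 it was lower in each library, with Nr1d2 at 3.03 times Arntl in O/Tet3 and 1.64 times Arntl in mOSN. The windows of the pair are shown because both their ratios and their motifs differ, and a link of motif to ratio was not tested. The Nr1d1 window has an E′-box on the reverse strand 28 bases before the start and no AGGTCA, and the Nr1d2 window has AGGTCA 77 bases before the start, as 16.3% of all windows hold it, and neither kind of E-box. They lie at chr11:98775328-98775627 and chr14:18239057-18239356, both on the minus strand, with these letters in capitals.
Nr1d1: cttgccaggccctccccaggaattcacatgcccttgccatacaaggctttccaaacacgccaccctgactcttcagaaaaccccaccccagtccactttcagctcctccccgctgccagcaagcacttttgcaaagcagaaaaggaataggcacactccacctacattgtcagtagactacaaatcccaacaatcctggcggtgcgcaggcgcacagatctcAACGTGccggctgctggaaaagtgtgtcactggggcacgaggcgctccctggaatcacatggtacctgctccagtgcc
Nr1d2: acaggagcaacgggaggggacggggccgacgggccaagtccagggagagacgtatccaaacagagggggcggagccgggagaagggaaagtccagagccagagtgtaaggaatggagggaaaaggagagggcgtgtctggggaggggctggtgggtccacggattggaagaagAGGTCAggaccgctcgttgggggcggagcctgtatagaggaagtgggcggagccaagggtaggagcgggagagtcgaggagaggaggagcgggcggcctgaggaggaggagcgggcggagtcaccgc

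**Figure D3:**
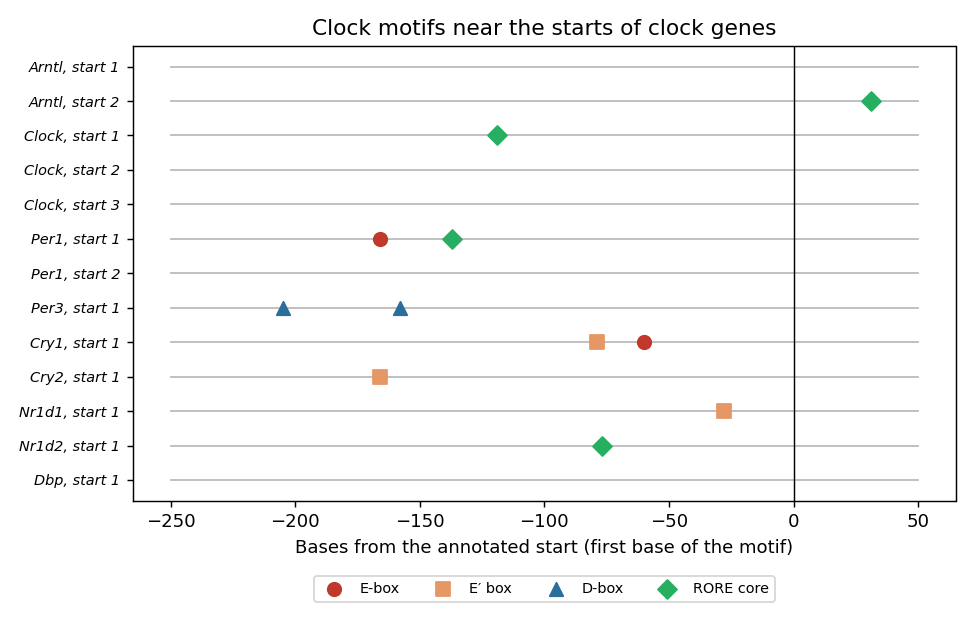
Positions of 4 motifs from 250 bases before to 50 bases after each annotated start (x axis, in bases, start at 0) in the 13 windows of 9 clock genes, with starts of a gene numbered by position on the chromosome. Circles mark E-boxes, squares E′-boxes, triangles D-boxes and diamonds the core of a ROR element; the 2 triangles are both in the Per3 window.

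Across all 13 windows of the 9 genes, CACGTG was found in 2 genes, CACGTT in 3, TTATGTAA in 1 and AGGTCA in 4. With the looser CANNTG, which includes CACGTG and is present in 72.3% of all windows, 6 of the 9 genes had a match. The AGGTCA windows are those of Nr1d2, Per1, 1 of 3 starts of Clock and 1 of 2 starts of Arntl, where it lies 31 bases after the start. Dbp had none of the 4 motifs in its window, which says only that these letters are not in these 300 bases.

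**Figure D4:**
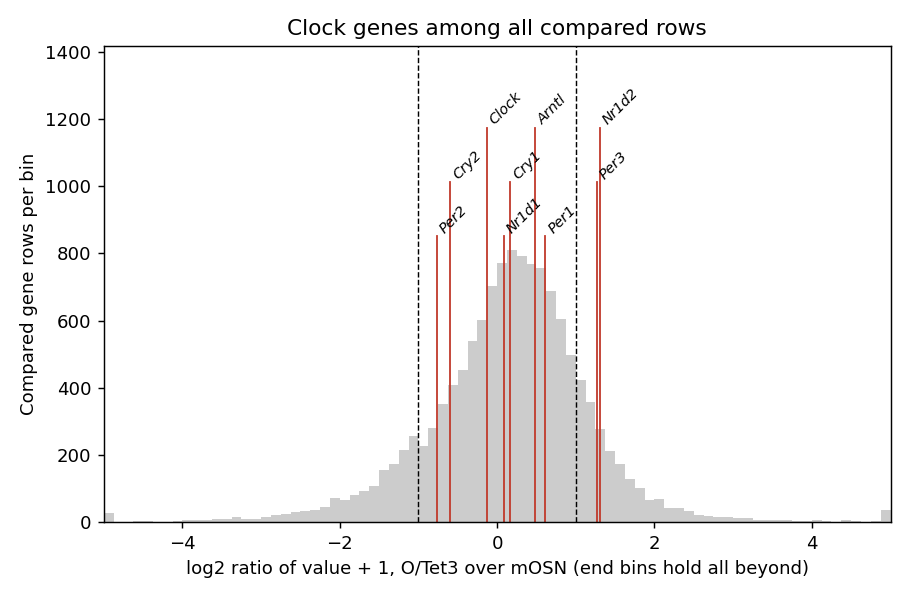
Histogram of the log2 ratios of value + 1, O/Tet3 over mOSN, for all 12943 compared rows (grey, rows per bin), with red lines at the 9 compared clock genes and dashed lines at a 2-fold difference. Nr1d2 (1.30) and Per3 (1.26) lie past the right line and the other 7 between the lines.

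The genes around the loop were described by 6 further lists, of paralogs and ROR receptors, output transcription factors, kinases and ubiquitin ligases of PER and CRY, cofactors, clock-controlled outputs, and inputs and pacemaker signals. Of 65 such genes in the table, 48 were compared, and 10 were at least 2-fold higher in the O/Tet3 library and 0 lower, beside 16.5% and 12.0% of all compared rows. Their median log2 ratio was 0.27, against 0.21 for all compared rows. Of the higher genes named below, Fbxl21 and Tsc22d3 reached a value of 1 only in O/Tet3. Relative to the shift of all genes 8 related genes were higher and 3 lower, beside 1464 and 1953 of all rows. With the summed scaling 5 related genes were higher and 3 lower, beside 1086 and 2186 of all rows.

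On the list of paralogs and ROR receptors, 2 of 6 genes were compared, with 2 higher and 0 lower, beside 16.5% and 12.0% of all compared rows. Of the receptors that activate Arntl, Rora was at 0.565 in O/Tet3 and 0.841 in mOSN, and Rorb at 0.362 in O/Tet3 and 0.285 in mOSN. These values of Rora and Rorb were too low to be compared. Timeless, named for a fly clock gene and in mammals tied mainly to DNA replication forks, was at 8.77 in O/Tet3 and 1.44 in mOSN (log2 ratio 2.00).

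Of the output factors, Bhlhe41 (DEC2), which competes for E-boxes and represses, was at 6.30 in O/Tet3 and 1.94 in mOSN, 3.25-fold higher (log2 ratio 1.31). Its paralog Bhlhe40 (DEC1) was at 0.973 in O/Tet3 and 0.518 in mOSN, and Gm129, the table's name for the repressor Ciart, at 0.475 in O/Tet3 and 0.260 in mOSN, both under a value of 1. Bhlhe41 was the 1 member of 3 compared output factors past 2-fold, where 16.5% of all compared rows were higher. With the summed scaling 0 output factors were past 2-fold.

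As deposited, most enzymes that set the life of PER and CRY proteins were within 2-fold. All 17 kinases and ligases were compared: 1 was higher and 0 were lower, beside 16.5% and 12.0% of all compared rows. The median log2 ratio was 0.08. These calls turned with the scale: 0 were higher and 2 lower both relative to the shift of all genes (median −0.13) and with the summed scaling (median −0.36). Relative to the shift the 2 were Prkaa2 and Gsk3b. The casein kinases that phosphorylate PER were at 25.8 in O/Tet3 and 24.4 in mOSN for Csnk1d, and at 6.59 in O/Tet3 and 7.91 in mOSN for Csnk1e. Fbxl21, an F-box protein that acts on CRY, was the higher member, at 1.25 in O/Tet3 and 0.00625 in mOSN, a value under that of 1 read at receptor length. Prkaa2, a subunit of the energy sensor AMPK that phosphorylates CRY1, was 3.49-fold lower in its values, at 0.661 in O/Tet3 and 2.31 in mOSN (log2 ratio −0.99).

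Of 10 compared cofactors, 1 was higher and 0 lower (median log2 ratio 0.18), beside 16.5% and 12.0% of all compared rows. That gene was Wdr5, a subunit of histone methyltransferase complexes, at 10.5 in O/Tet3 and 4.45 in mOSN, 2.35-fold higher, but within 2-fold relative to the shift of all genes and with the summed scaling, where the list medians were −0.023 and −0.23. Ncor1 and Hdac3, through which the NR1D receptors repress, were within 2-fold, with Ncor1 at 47.3 in O/Tet3 and 66.6 in mOSN and Hdac3 at 11.2 in O/Tet3 and 7.48 in mOSN.

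Among the clock-controlled outputs, 2 of 8 compared genes were higher and 0 lower (median log2 ratio 0.05), beside 16.5% and 12.0% of all compared rows. Relative to the shift of all genes 2 were higher and 1 lower (median −0.15), as with the summed scaling (median −0.30). Klf10, a zinc finger repressor, was at 8.74 in O/Tet3 and 2.47 in mOSN, 3.54-fold higher (log2 ratio 1.49). Ccrn4l, which encodes the protein nocturnin, related to deadenylases, was listed at 2262 in O/Tet3 and 23.2 in mOSN. That O/Tet3 value exceeds the 139 of Omp, the marker of the cells, and whether it comes from transcripts of Ccrn4l was not tested.

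Signals that reset clocks formed the last list. The signal genes of the central pacemaker were listed at 0 in both libraries (Vip and Prok2) or under a value of 1 (Avp at 0.933 in O/Tet3 and 0.245 in mOSN). Of 8 compared inputs, 3 were higher and 0 lower (median log2 ratio 0.67), beside 16.5% and 12.0% of all compared rows. The 3 were Tsc22d3, Sgk1 and Nr3c1. Tsc22d3 (GILZ), a target of glucocorticoids, was at 9.90 in O/Tet3 and 0.873 in mOSN, 11.3-fold higher (log2 ratio 2.54). The kinase gene Sgk1 was at 14.6 in O/Tet3 and 5.03 in mOSN, and Nr3c1, which encodes the glucocorticoid receptor, at 17.4 in O/Tet3 and 6.10 in mOSN. Fkbp5, another target, was at 2.54 in O/Tet3 and 1.41 in mOSN, under 2-fold, and Klf9, which glucocorticoids also induce, at 1.03 in O/Tet3 and 1.66 in mOSN. With the summed scaling 1 of these inputs was past 2-fold.

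**Figure D5:**
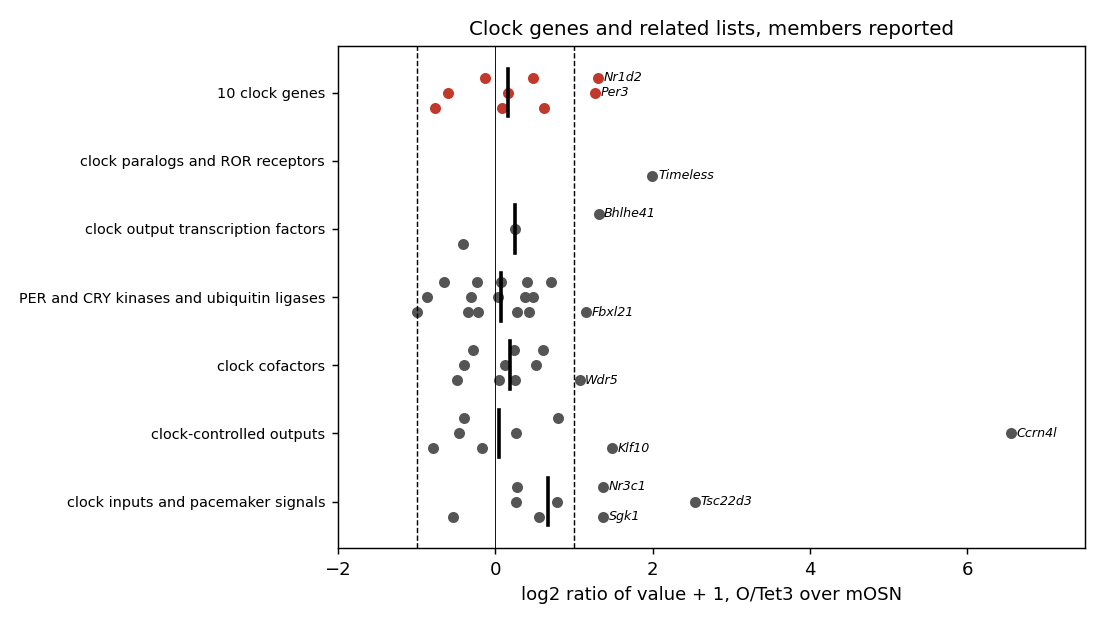
log2 ratios of value + 1, O/Tet3 over mOSN, for the compared clock genes (red) and members of 6 related lists (grey), 1 point a gene reported, with black bars at the median of lists with at least 3 compared genes and dashed lines at a 2-fold difference. Named points are the genes past 2-fold, all to the right; Ccrn4l lies farthest out.

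Markers of the sorted cells differed between the libraries too. By the same rule 10 of 11 mature neuron markers were lower in O/Tet3 and 0 higher, beside 12.0% and 16.5% of all compared rows. Their summed value was 766 in O/Tet3 and 3226 in mOSN, with none at 0 in either. Of 12 markers of immature neurons 10 were compared, with 3 higher, 1 lower and sums of 207 in O/Tet3 and 193 in mOSN. Sums were 2.80 in O/Tet3 and 1.70 in mOSN over 8 progenitor markers, 3.69 in O/Tet3 and 4.44 in mOSN over 9 basal, gland and microvillous markers, 9.29 in O/Tet3 and 26.4 in mOSN over 8 sustentacular markers, and 42.8 in O/Tet3 and 67.7 in mOSN over 12 glia, blood, vessel and immune markers. Haemoglobin rows made up 39.3 of that last sum in O/Tet3 and 59.8 in mOSN, and the other 9 markers 3.44 in O/Tet3 and 7.90 in mOSN. Outside the neuron lists, Fabp7 of glia (0.0607 in O/Tet3 and 4.78 in mOSN), Ugt2a1 of sustentacular cells (2.53 in O/Tet3 and 15.6 in mOSN), Ascl3 (0 in O/Tet3 and 1.58 in mOSN) and Cftr (0 in O/Tet3 and 1.02 in mOSN) were lower, and Pou2f3 (2.90 in O/Tet3 and 0.582 in mOSN) was higher. Markers listed at 0 in O/Tet3 included Krt5, Krt14, Trp63, Cyp1a2 and S100b, and Cdh5 was at 0 in both and Sox9 in mOSN. In RNA of many cells, fewer cells of a type and less RNA per cell cannot be told apart, and the part of cell makeup in the clock gene values was not tested.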

How the data were processed

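Per the labels' protocols, total RNA of sorted cells was depleted of ribosomal RNA (RiboMinus) and made into libraries with ScriptSeq. Build mm9 and the tools Cuffdiff, Bowtie and Bowtie2 appear per the submitters' processing notes. Versions, roles, annotation and strand setting are not given in the sources used here. The authors' deposited table holds log2 values per gene row and library and their difference. They are log2(value + 1): the lowest is 0, and the linear numbers have at most 6 significant digits in 99.3% of O/Tet3 and 99.4% of mOSN values above 0.01. The deposited ratio equals the difference of the columns within 8.0e-14. Columns were assigned by name to the 2 RNA libraries. The 5-hydroxymethylcytosine DNA sample is not analysed here. Total depth is unknown, and steps of low values gave relative depth.

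Values, ratios, counts and medians were computed with Python 3.11.15, numpy 2.4.6 and pandas 2.3.3, with a floor of 1, a pseudocount of 1 and a 2-fold rule. The counting was checked on known changes put into high mOSN values. All clock genes lie lower, so that check does not cover the effect of the added 1 on low values. Named genes are the 10 members, Tet3, Omp, overlapping genes, 12 neighbours of the loop and up to 4 genes past 2-fold per related list. Further genes were named after their values were seen: Arntl2, Ciart, Prkaa2, Gsk3b, Ncor1, Hdac3, Vip, Prok2, Avp, Fkbp5 and Klf9. The members and lists were chosen with earlier results of these data known. Promoter windows are RefSeq's (GRCm38.p6), matched by symbol for 9 of 10 genes, and overlaps come from that annotation. Some genes of the lists are counted but not reported here by name. Alternatives were the pseudocount, floor, fold and scaling.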

Additional observations from a re-analysis of the deposited data

How the results depend on the processing

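Of 30 recomputed log2 ratios of single clock genes, 25 moved by at most 1.5-fold without a change of sign and 5 did not. With a pseudocount of 0.1, Per3 was at 2.28. Relative to the shift of all genes, Cry1 was at −0.037 and Nr1d1 at −0.12, and with the summed scaling at −0.21 and −0.13. By value + 1, that scaling also brought the count of higher clock genes to 0 and of lower ones to 1 (Per2), with a median of −0.022. It brought the related genes to 5 higher, 3 lower and a median of −0.15, and all rows to 1086 higher and 2186 lower. Centring brought the clock median to −0.037 and the related genes to 3 lower. Centring subtracts the same amount from every ratio, and the summed scaling lowers O/Tet3 values, by amounts of log2 ratio that differ between genes. Small positive ratios can therefore change sign by construction. Dbp stayed above 0, at 0.0007 when centred and 0.067 with the summed scaling. With a pseudocount of 0.1, and by the values themselves (an alternative chosen after seeing the data), 1 clock gene (Per2) and 1 related gene were lower. A floor of 5 left 1 higher clock gene, and 1401 higher and 793 lower rows. At 3-fold of value + 1, 0 clock genes and 4 related genes were higher, with 745 of all rows higher and 673 lower. By the values themselves Nr1d2 was 3.04-fold and Per3 5.78-fold higher. Without receptors, small RNAs and rows listed at 0, 1903 rows were higher and 888 lower, against 2135 and 1552 of all compared rows. A stricter floor or fold counts fewer rows by construction. Of 58 recomputed counts, medians and ratios of Arntl to Nr1d1, 37 stayed within 1.5 times. Clock genes with an E-box numbered 6 by CANNTG, against 2. Fewer reads per unit of value in O/Tet3, and a value under that of 1 read at receptor length for Fbxl21 in mOSN, limit what these libraries show. No paired analysis was possible because 1 O/Tet3 and 1 mOSN library leave no pairs to compare.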
